A study of Homo sapiens with 2 samples.

Results

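The condensin and topoisomerase II genes were examined in PC3 cells after knockdown of SUB1. They are the 10 genes of the condensin complexes and of the topoisomerase II enzymes: SMC2, SMC4, NCAPD2, NCAPD3, NCAPG, NCAPG2, NCAPH, NCAPH2, TOP2A and TOP2B. Members were chosen by name, as every non-control probe whose gene name on the array was one of these symbols or an older alias, and the rule uses no measured value, though the set was proposed with earlier results of these data known. They make up 10 of the 30482 genes on the array, with 12 of its 41000 probes. All 10 genes and all 12 probes passed the filter on dim spots, which kept 19218 genes in all.

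PC3 is an established human prostate cancer cell line that grows without androgen. SUB1, also known as PC4, is a coactivator of transcription that binds single-stranded DNA. Cells were transfected with SUB1 siRNA 1, SUB1 siRNA 2 or non-targeting (Non-T) siRNA, were transfected again 24 h later, and were harvested 72 h after the first transfection. Each of 2 dual-colour arrays set Cy5-labelled RNA of cells given 1 SUB1 siRNA against Cy3-labelled RNA of cells given Non-T siRNA. The knockdown was transient, and the sources do not say if a single Non-T RNA extract served both arrays. With 1 array per siRNA and the dyes never exchanged, a probe's preference for a dye and a response to knockdown cannot be told apart.

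Condensins are ring-shaped motors that fold DNA into loops and shape mitotic chromosomes. Their core is a dimer of the ATPases SMC2 and SMC4, which a kleisin subunit closes and to which HEAT repeat subunits bind. Condensin I is built with NCAPH, NCAPD2 and NCAPG and reaches the chromosomes once the nuclear envelope has broken down, whereas condensin II is built with NCAPH2, NCAPD3 and NCAPG2 and is nuclear throughout the cell cycle. Topoisomerase II passes one DNA duplex through another and so untangles sister chromatids. Its alpha isoform, TOP2A, is made mainly by dividing cells, and its beta isoform, TOP2B, is made by resting cells as well.

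The promoters of these genes are printed for the 3 members that were at least 2-fold lower on an array (TOP2A, NCAPD2 and NCAPG) and for TOP2B, as the paralogue of TOP2A. Each sequence runs 5′ to 3′ from 250 bases before to 50 bases after an annotated start and is from RefSeq on GRCh38.p14, in which 9 of the 10 members, all but NCAPH2, were matched. Capitals mark the cell cycle homology region core TTTGAA, read as TTCAAA on the other strand, and the CCAAT box, read as ATTGG on the other strand. The TOP2A promoter is chr17:40417847-40418146 (minus strand), that of NCAPD2 is chr12:6493852-6494151 (plus strand) and that of NCAPG is chr4:17810729-17811028 (plus strand). TOP2B has 2 annotated starts, and the printed promoter is chr3:25664858-25665157 (minus strand).
TOP2A: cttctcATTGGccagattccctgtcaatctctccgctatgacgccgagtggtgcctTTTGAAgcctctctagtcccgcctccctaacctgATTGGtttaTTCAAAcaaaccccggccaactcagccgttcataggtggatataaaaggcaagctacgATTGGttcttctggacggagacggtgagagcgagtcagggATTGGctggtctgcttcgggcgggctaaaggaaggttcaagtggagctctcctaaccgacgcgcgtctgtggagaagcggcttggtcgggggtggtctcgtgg
NCAPD2: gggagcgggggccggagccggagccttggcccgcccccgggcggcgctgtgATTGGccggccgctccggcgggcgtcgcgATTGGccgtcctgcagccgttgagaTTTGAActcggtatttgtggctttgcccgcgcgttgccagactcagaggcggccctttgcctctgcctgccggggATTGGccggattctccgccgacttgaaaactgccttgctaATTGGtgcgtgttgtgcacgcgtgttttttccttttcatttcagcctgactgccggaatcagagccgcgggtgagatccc
NCAPG: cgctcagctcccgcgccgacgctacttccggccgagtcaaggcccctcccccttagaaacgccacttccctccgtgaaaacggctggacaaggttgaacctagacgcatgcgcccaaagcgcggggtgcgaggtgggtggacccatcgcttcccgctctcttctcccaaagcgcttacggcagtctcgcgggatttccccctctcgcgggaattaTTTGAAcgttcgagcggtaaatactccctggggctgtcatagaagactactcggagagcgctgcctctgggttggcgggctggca
TOP2B: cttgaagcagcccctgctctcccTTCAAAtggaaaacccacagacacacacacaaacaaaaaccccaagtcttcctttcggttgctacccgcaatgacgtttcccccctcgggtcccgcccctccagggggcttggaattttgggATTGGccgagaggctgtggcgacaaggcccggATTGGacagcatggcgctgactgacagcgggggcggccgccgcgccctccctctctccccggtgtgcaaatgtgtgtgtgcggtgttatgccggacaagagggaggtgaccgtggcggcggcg

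The TOP2A promoter held 4 CCAAT boxes, all on the reverse strand, and 2 TTTGAA cores, the nearer of which begins at position -151 from the start. The NCAPD2 promoter likewise held 4 reverse CCAAT boxes, with 1 TTTGAA core at position -145. In the NCAPG promoter there was a single TTTGAA core, at position -35, and no CCAAT box. Over all members with a promoter, TTTGAA was found on either strand in 8 of 13 entries, and in at least 1 entry of 8 genes, against 15.2% of the 35114 human promoters of the same length. The member without it was NCAPH, which held 1 CCAAT box. CCAAT was found in 5 of the 13 entries, against 34.6% of all promoters, and 10.8% of all promoters held it more than once. E2F-like letters (TTTGGCGC, TTTCCCGC or TTTGCGCC, either strand) were in 1 entry, that of NCAPD3, and in 2.82% of all promoters. TOP2B held TTTGAA and 2 CCAAT boxes at the printed start and none of these letters at the other, so the letters were present in promoters of members that were 2-fold lower and of members that were not. The searched motifs overlapped nowhere in the printed promoters, and a match of letters is a description, not a bound site.

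**Figure D1:**
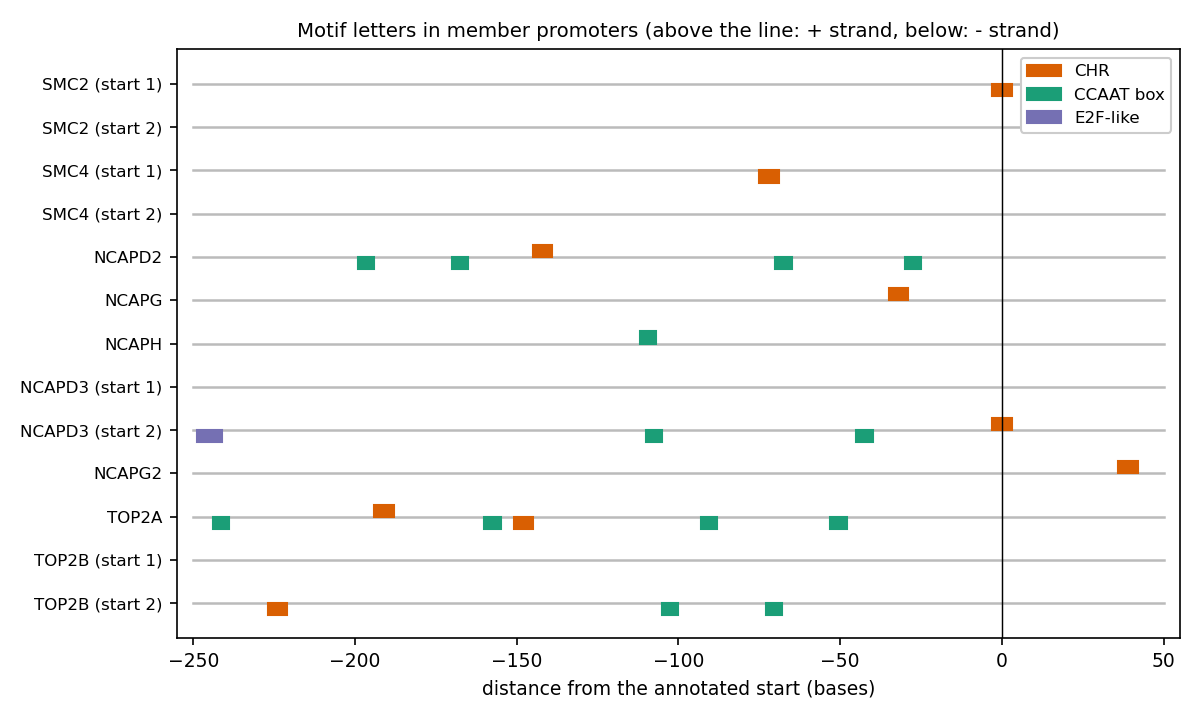
Position of motif letters in the 13 promoter entries of 9 members, from 250 bases before to 50 after the annotated start (vertical line). Boxes above a line are on the strand of the gene and boxes below it on the other strand. TOP2A and NCAPD2 carry 4 CCAAT boxes each, and 8 entries carry TTTGAA (CHR).

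SUB1 itself was measured first as the targeted gene. Its log2 level was 13.08 in Non-T and 9.78 in SUB1 siRNA 1 cells on the first array, and 12.89 and 9.63 with siRNA 2 on the second, so that 10.2% and 10.4% of the signal was left by its brightest probe. The other 3 SUB1 probes had log2 ratios of -3.35 and -3.16, -3.75 and -3.50, and, for the dimmest, -1.81 and -1.57. It was the 1 gene with an adjusted p under 0.05 (limma, Benjamini-Hochberg over 19218 genes, adjusted p = 0.0248). All 4 epithelial markers tested (KRT8, KRT18, KRT19 and EPCAM) were well above background in all 4 channels. Of KLK3, a secreted prostate protease, 1 of 3 probes was well above background in all 4 channels. Of 6 markers of stroma, endothelium and leukocytes, PTPRC and COL3A1 had no probe well above background in any channel, VWF had a probe so in 2 of 4 channels, and COL1A1, PECAM1 and CD3E each had a probe so in all 4. COL1A1, a fibrillar collagen, had ratios of 0.66 and 0.45, PECAM1 had -0.11 and -0.37, VWF had 0.059 and 0.043 and CD3E had -0.0029 and 0.085, and the part of other cell types in the members' values was not tested. Over all genes, 117 were at least 2-fold lower and 40 at least 2-fold higher with siRNA 1, and 205 and 118 with siRNA 2. With median centring instead of loess, which moved the median of all genes to 0.13 and 0.12, this split turned to 56 lower and 137 higher, and to 101 and 266. With the scanner software's processed signals it was 298 lower and 778 higher, and 474 and 994.

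Most condensin and topoisomerase II mRNAs were lower in cells given either SUB1 siRNA. With siRNA 1, 2 of the 10 members, NCAPD2 and NCAPG, were at least 2-fold lower (0.609% of all genes were), and with siRNA 2 NCAPG and TOP2A were (1.07% of all genes). NCAPG was so with both siRNAs, as were 0.14% of all genes. None was at least 2-fold higher, against 0.208% and 0.614% of all genes on each array and 0.052% on both. The log2 ratio (knockdown over Non-T) was below 0 for 8 members with siRNA 1 and for all 10 with siRNA 2, where 45.9% and 46.4% of all genes were. It was below 0 with both siRNAs for 8 members and 30.3% of all genes, and lower with siRNA 2 than with siRNA 1 for 8 members and 50.4% of all genes. The median over the members was -0.56 with siRNA 1 and -0.78 with siRNA 2, and that of all genes was 0.024 with both.

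In limma's test of the mean ratio of both siRNAs against 0, 0 members reached an adjusted p of 0.05 over all genes (SUB1 alone did, 0.0052% of genes), and the lowest adjusted p of a member was 0.112. At an unadjusted p under 0.05, 8 of the 10 members were lower and 0 higher, as were 9.91% and 11% of all genes. That test takes the 2 siRNAs as replicates and, where the arrays shared 1 Non-T extract, leaves out the spread between control cultures, so its p-values measure only the spread between these arrays. In RNA from whole cultures, fewer dividing cells and less of an mRNA per cell cannot be told apart.

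**Figure D2:**
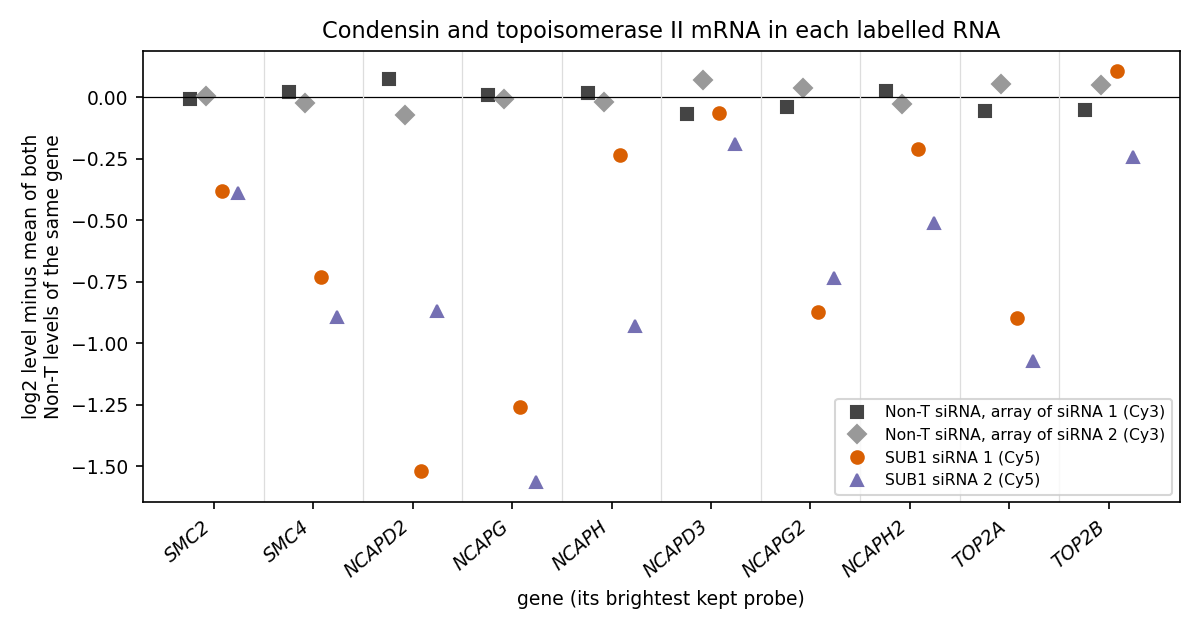
Normalized log2 level of each member in each of the 4 labelled RNAs, set against the mean of both Non-T levels of the same gene. Squares and diamonds are Non-T siRNA, circles SUB1 siRNA 1 and triangles SUB1 siRNA 2, with 1 value per point. For 8 of 10 genes both SUB1 siRNA points lie below both Non-T points, the exceptions being NCAPD3 and TOP2B.

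Levels are normalized log2 intensities of each channel, which can be set against each other within a gene but not between genes. Technical spread was read from probes spotted 10 times, whose log2 ratio had a median SD among spots of 0.078 with siRNA 1 and 0.074 with siRNA 2, since each member probe had 1 spot. Across all genes, the Non-T levels of the arrays differed with an SD of 0.117 and the SUB1 siRNA levels with an SD of 0.313. For the members the Non-T levels lay closest for SMC2, at 0.013 apart, and the level of NCAPD2 differed most, being 0.15 lower on the second array (-0.15). For 8 of 10 members both SUB1 siRNA levels lay below both Non-T levels, as they did for 25% of all genes.

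Of the condensin core, SMC4 was lower by more than SMC2. The SMC4 probe for NM_005496 (hg18, chr3:161634379-161634438, plus strand) had a log2 level of 10.67 in Non-T and 9.92 in SUB1 siRNA 1 cells, and of 10.63 in Non-T and 9.75 in SUB1 siRNA 2 cells. Both knockdown levels were below both controls, and the arrays were close to each other. The ratios were -0.75 and -0.87, which left 59.4% and 54.6% of the signal, and their mean was -0.81 (SE 0.0988, n = 2 siRNAs, limma adjusted p = 0.112). Its mean ratio ranked 197 from the lowest of all genes. A second SMC4 probe, for the transcript AK002200 at chr3:161613266-161613325, was not well above background in Non-T cells on either array. Its log2 levels were 6.28 and 6.36 (Non-T and SUB1 siRNA 1) and 6.57 and 6.38 (Non-T and SUB1 siRNA 2), and no fold is given for it. SMC2, the other ATPase of the core (NM_006444, chr9:105941261-105941320, plus strand), had 8.21 in Non-T and 7.84 in SUB1 siRNA 1 cells, and 8.23 and 7.83 with siRNA 2. Its ratios of -0.38 and -0.40 were nearly equal, with a mean of -0.39 (SE 0.0946, n = 2 siRNAs, limma adjusted p = 0.150). The log2 ratio of SMC4 minus that of SMC2 was -0.38 and -0.48, which turned to 0.042 and -0.13 when the probes of each gene were averaged, and the difference was not tested.

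The lowest mean ratios of the 10 members were those of the condensin I subunits NCAPG and NCAPD2, although with siRNA 2 TOP2A, NCAPH and SMC4 were lower than NCAPD2. NCAPG, a HEAT repeat subunit (NM_022346, chr4:17454140-17454199, plus strand), had a log2 level of 11.34 in Non-T and 10.07 in SUB1 siRNA 1 cells, and of 11.32 and 9.76 with siRNA 2. The raw mean spot signals were 2539 in Cy3 and 1287 in Cy5 on the first array, and 2132 and 888 on the second, with local backgrounds between 41 and 52. The Non-T levels were almost equal and the knockdown levels stood far below them. NCAPG was 2.41-fold lower with siRNA 1 and 2.94-fold lower with siRNA 2, leaving 41.5% and 34.0% of the signal. Its mean ratio of -1.41 (SE 0.116, n = 2 siRNAs, limma adjusted p = 0.112) ranked 10 from the lowest of all 19218 genes.

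NCAPD2, the other HEAT repeat subunit of condensin I (NM_014865, chr12:6510859-6510918, plus strand), had a log2 level of 9.08 in Non-T and 7.49 in SUB1 siRNA 1 cells, and of 8.93 and 8.14 with siRNA 2. The raw signals were 555 in Cy3 and 205 in Cy5 on the first array, and 432 and 287 on the second. Both knockdown levels lay below both controls, but siRNA 1 gave the lower level. NCAPD2 was 3.01-fold lower with siRNA 1, the ratio that ranked 14 from the lowest on that array, and 1.73-fold lower with siRNA 2, where it ranked 387. Its ratios of -1.59 and -0.79 lay 0.80 apart, a difference that 2.67% of all genes matched or exceeded, and the lower Non-T level on the second array (-0.15) is a part of it. The mean was -1.19 (SE 0.211, n = 2 siRNAs, limma adjusted p = 0.119).

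NCAPH, the kleisin of condensin I (NM_015341, chr2:96403053-96403112, plus strand), differed between the siRNAs the other way. Its log2 level was 9.77 in Non-T and 9.52 in SUB1 siRNA 1 cells, and 9.74 and 8.82 with siRNA 2. The Non-T levels were close, and the siRNA 2 level stood apart from the other three channels. Its ratios were -0.25 and -0.91, so that 84.0% and 53.1% of the signal was left, and 4.53% of all genes had ratios at least as far apart. The mean of -0.58 (SE 0.183, n = 2 siRNAs) had a limma adjusted p of 0.194. The ratios of the condensin I subunits spanned -1.59 to -0.25 under siRNA 1 and -1.56 to -0.79 under siRNA 2. Each value comes from 1 array, and the difference between the siRNAs was not tested.

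Of the condensin II subunits, none reached a 2-fold difference. NCAPG2, a HEAT repeat subunit and the paralogue of NCAPG (NM_017760, chr7:158117004-158117063, minus strand), had a log2 level of 8.82 in Non-T and 7.99 in SUB1 siRNA 1 cells, and of 8.90 and 8.13 with siRNA 2. It was 1.78-fold and 1.71-fold lower, with a mean ratio of -0.80 (SE 0.0956, n = 2 siRNAs, limma adjusted p = 0.112), and ranked 202. The ratios of the siRNAs were close, and both knockdown levels lay below both controls. NCAPH2, the kleisin (NM_152299, chr22:49308449-49308576, plus strand), had 9.47 and 9.23 on the first array and 9.41 and 8.93 on the second, which gave ratios of -0.24 and -0.48 and a mean of -0.36 (SE 0.111, n = 2 siRNAs, limma adjusted p = 0.191). Its second probe, for NM_014551 at chr22:49303554-49303983, had 6.93 and 6.52 on the first array and 6.88 and 6.60 on the second, or ratios of -0.41 and -0.28. That probe was dim, with raw Cy5 signals of 103 and 98.8 over local backgrounds of 57 and 54.5. It was well above background in every channel. Both NCAPH2 probes were lower with both siRNAs but ordered the siRNAs oppositely, which rests in part on the dim probe. The genomic spans of these 2 probes, 128 and 430 bases, exceed the 60 bases of the others.

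NCAPD3, the remaining HEAT repeat subunit of condensin II (NM_015261, chr11:133527838-133527897, minus strand), had a log2 level of 8.90 in Non-T and 8.91 in SUB1 siRNA 1 cells, and of 9.04 and 8.78 with siRNA 2. The siRNA 1 level lay between the Non-T levels, so the groups overlapped. Its ratios were 0.0074 and -0.26, with a mean of -0.13 (SE 0.114, n = 2 siRNAs, limma adjusted p = 0.561) that turned to 0.061 under median centring. That setting moved the median of all genes to 0.13 and 0.12, and against it the NCAPD3 ratios were 0.068 and -0.19. NCAPD3 and TOP2B were the members whose ratios had opposite signs with the 2 siRNAs.

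Of the topoisomerase II isoforms, TOP2A was lower on both arrays and TOP2B on the second only. TOP2A (NM_001067, chr17:35799235-35799294, minus strand) had a log2 level of 8.46 in Non-T and 7.61 in SUB1 siRNA 1 cells, and of 8.57 and 7.44 with siRNA 2. The raw signals were 367 in Cy3 and 220 in Cy5 on the first array, and 348 and 175 on the second, above local backgrounds of 44 to 52. Both knockdown levels lay below both controls. TOP2A was 1.79-fold lower with siRNA 1 and 2.19-fold lower with siRNA 2, leaving 55.7% and 45.7% of the signal. Its mean ratio of -0.99 (SE 0.116, n = 2 siRNAs, limma adjusted p = 0.112) ranked 97 from the lowest. With siRNA 2 it just passed the 2-fold line (-1.13), and under median centring it just missed it (-0.99). Against the median of all genes on that array, TOP2A was -1.15 as reported and -1.11 under median centring.

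TOP2B (NM_001068, chr3:25614718-25614777, minus strand) had a log2 level of 11.64 in Non-T and 11.79 in SUB1 siRNA 1 cells, and of 11.74 and 11.44 with siRNA 2. The siRNA 1 level was above both Non-T levels and the siRNA 2 level below both. The ratios were 0.16 and -0.29, a 1.11-fold higher and a 1.23-fold lower level. The mean of -0.069 (SE 0.142, n = 2 siRNAs) had a limma adjusted p of 0.810 and turned to 0.20 under median centring. Against the median of all genes in that setting, the ratios of TOP2B were 0.29 and -0.14. The TOP2B ratios lay 0.45 apart (-0.45), as far as those of 11.9% of all genes or farther.

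**Figure D3:**
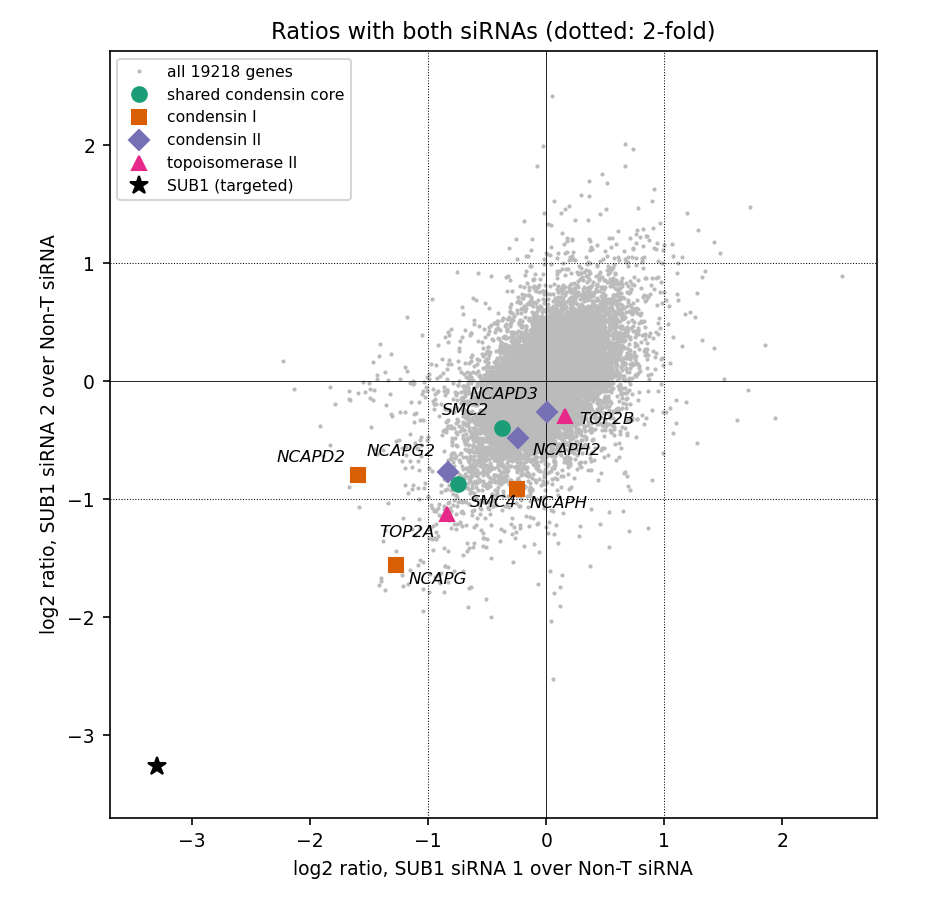
Log2 ratio (knockdown over Non-T) with siRNA 1 (horizontal axis) and siRNA 2 (vertical axis), 1 array each, for all 19218 genes in grey and for the members by complex. Dotted lines mark a 2-fold difference. NCAPG lies past the line with both siRNAs, NCAPD2 with siRNA 1 and TOP2A with siRNA 2, while TOP2B and NCAPD3 lie near the centre.

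Paralogues that hold the same place in their complexes can be compared within an array, as the difference between their log2 ratios. The NCAPD2 ratio was below that of NCAPD3 by a wide margin with siRNA 1 (-1.60) and by less with siRNA 2 (-0.53). NCAPG against NCAPG2 gave -0.43 and -0.78. The kleisins NCAPH and NCAPH2 had almost the same ratio with siRNA 1 (a difference of -0.015), and NCAPH was the lower with siRNA 2 (-0.43). TOP2A was below TOP2B on both arrays, with differences of -0.9996 and -0.84. Among these 4 pairs the sign held for all but NCAPH and NCAPH2 with siRNA 1, over the 6 alternatives that could change the pairs with 1 probe per gene. The NCAPH and NCAPH2 difference with siRNA 1 turned positive in 4 of 10: 0.013 with median spot signals, 0.036 with processed signals, 0.043 with the authors' ratios and 0.072 with averaged probes. These are descriptions of 2 arrays with no test, and both arrays may share control RNA.

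Of the regulators and partners of condensin, the mitotic kinases and cyclins had the lowest ratios. Of 15 listed genes, 13 passed the filter, and 4 were at least 2-fold lower with both siRNAs (0.14% of all genes were), with a list median of -0.53 on each array. PLK1, a mitotic kinase that phosphorylates condensin II, had ratios of -1.41 and -1.72. CCNB2, a mitotic B-type cyclin, had -1.21 and -1.74. CDK1, the kinase those cyclins activate and which phosphorylates condensins, had -1.04 and -1.76, and the remaining one, CCNB1, named because it completes the count, had -1.08 and -1.002. None of the list was at least 2-fold higher (0.208% and 0.614% of all genes were), and none passed an adjusted p of 0.05 in limma (lowest 0.112). At an unadjusted p under 0.05, 8 of 13 were lower and 1 higher, against 9.91% and 11% of all genes. The list also holds casein kinase 2 and protein phosphatase 2A subunits, and its highest ratios were 0.36 and 0.35.

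Among 12 genes of topoisomerase II partners and of anaphase bridge resolution, all measured, 0 were at least 2-fold lower with siRNA 1 and 2 with siRNA 2, where 0.609% and 1.07% of all genes were. ERCC6L, the PICH translocase that coats ultrafine anaphase bridges, had ratios of -0.82 and -1.17. BLM, the helicase that acts on those bridges, had -0.56 and -1.12. TDP1, which removes topoisomerase remnants, chiefly of topoisomerase I, from DNA ends, had -0.83 and -0.76. The list medians were -0.25 and -0.41, and no gene of it was at least 2-fold higher (0.208% and 0.614% of all genes were). In limma none passed an adjusted p of 0.05 (lowest 0.112), and 6 of 12 were lower and 0 higher at an unadjusted p under 0.05, beside 9.91% and 11% of all genes.

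The other SMC complexes were taken as 17 genes of cohesin, its loader and regulators and the SMC5/6 complex, with the SMC-related SMCHD1 among them. Of these, 0 were at least 2-fold lower or higher with either siRNA. Of all genes 0.609% and 1.07% were lower and 0.208% and 0.614% higher, so 0 of 17 is near those shares. The medians were 0.012 and 0.067, close to those of all genes. The SMC5/6 subunits NSMCE3 (0.56 and 0.85) and NSMCE2 (0.32 and 0.73) had positive ratios, whereas SMC6, NSMCE1 and NSMCE4A were below 0 with both siRNAs and SMC5 had -0.80 and 0.15. These 4 were named after their values were seen. RAD21, the kleisin of mitotic cohesin, had -0.38 and -0.55. Of the other topoisomerases, 4 of 5 were measured and none was 2-fold different, beside the same small shares of all genes. TOP1, the main type I enzyme of the nucleus, had 0.29 and 0.46. TOP3A had -0.28 and -0.083, and TOP3B had -0.16 and 0.021. In limma, no gene of either list passed an adjusted p of 0.05 (lowest 0.113 and 0.164). At an unadjusted p under 0.05, 2 of 17 were lower and 3 higher, and of the other topoisomerases 0 of 4 were lower and 1 higher, beside 9.91% and 11% of all genes.

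Most markers of proliferation had ratios below 0, 10 of 12 with siRNA 1 and 12 of 12 with siRNA 2, against 45.9% and 46.4% of all genes. Of these genes, 4 were at least 2-fold lower with siRNA 1 and 6 with siRNA 2 (0.609% and 1.07% of all genes). None was 2-fold higher (0.208% and 0.614% of all genes were), and the medians were -0.68 and -0.90. CDK1, CCNB1 and MKI67 are on both this list and that of condensin regulators, so the counts of the lists are not independent. RRM2, the small subunit of ribonucleotide reductase, had -1.14 and -1.25, and FOXM1, a transcription factor of G2 and mitosis, had -1.07 and -1.24. Ratios of the whole list lay between -1.14 and 0.35 for siRNA 1 and between -1.76 and -0.016 for siRNA 2. In limma none passed an adjusted p of 0.05 (lowest 0.112), and 9 of 12 were lower and 0 higher at an unadjusted p under 0.05, against 9.91% and 11% of all genes. The part of proliferation in the values of the condensin and topoisomerase II genes was not tested.

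**Figure D4:**
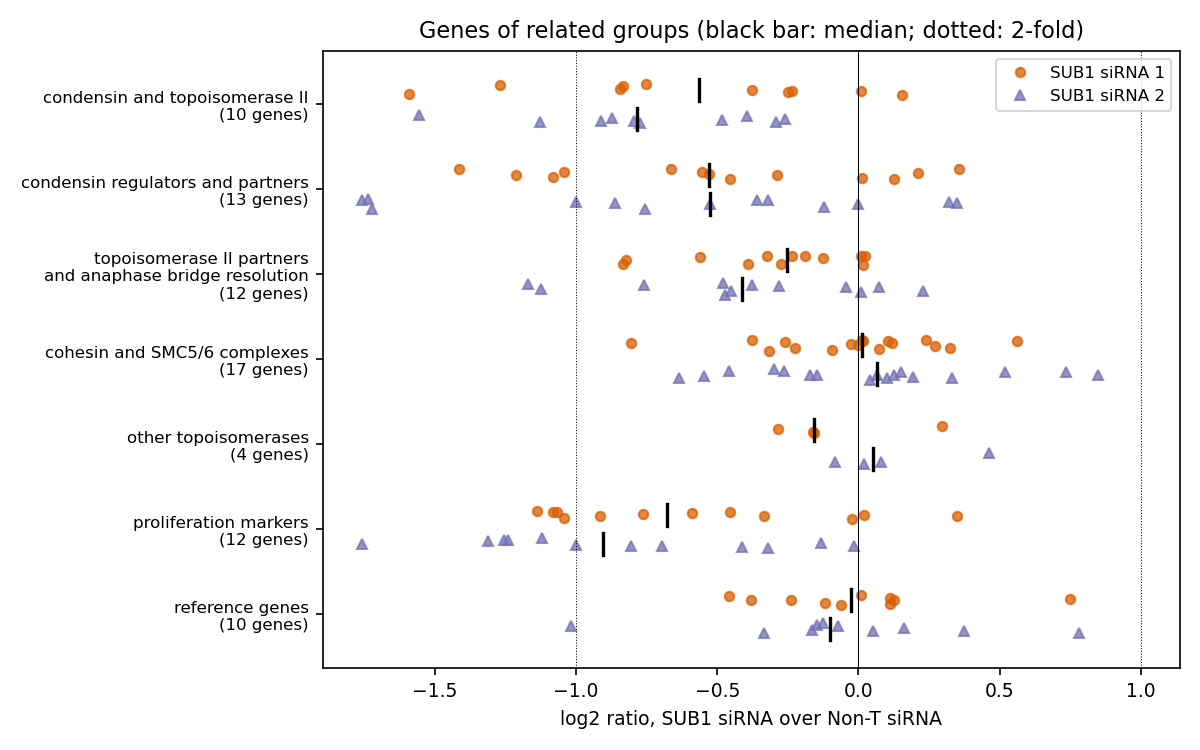
Log2 ratio (knockdown over Non-T) for the members and for 6 lists of related genes, with siRNA 1 as circles and siRNA 2 as triangles, 1 array each. Black bars are medians and dotted lines a 2-fold difference. The medians of the members (-0.56 and -0.78) lie near those of the proliferation markers (-0.68 and -0.90), and those of cohesin and SMC5/6 lie near 0.

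Member ratios were recomputed under 10 other ways of processing the spots. For NCAPG, NCAPD2, TOP2A and TOP2B, with 1 probe and 1 unflagged spot each, the 4 that changed only the filter, the outlier spots or the averaging of probes could not change a value, which leaves 6. In these 6 NCAPG passed the 2-fold line with either siRNA, ranging between -1.29 and -1.03 for siRNA 1 and between -1.59 and -1.31 for siRNA 2. NCAPD2 was so with siRNA 1 in the 6 (-2.13 to -1.44) and with siRNA 2 in none (-0.997 to -0.63). TOP2A passed the line with siRNA 2 in 5 of 6 (-1.62 to -0.99) and with siRNA 1 in 1 (-1.25 with the processed signals). SMC4 moved most when its probes were averaged, to -0.33 and -0.53. TOP2B was above 0 with siRNA 1 and below 0 with siRNA 2 in the 6.

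**Figure D5:**
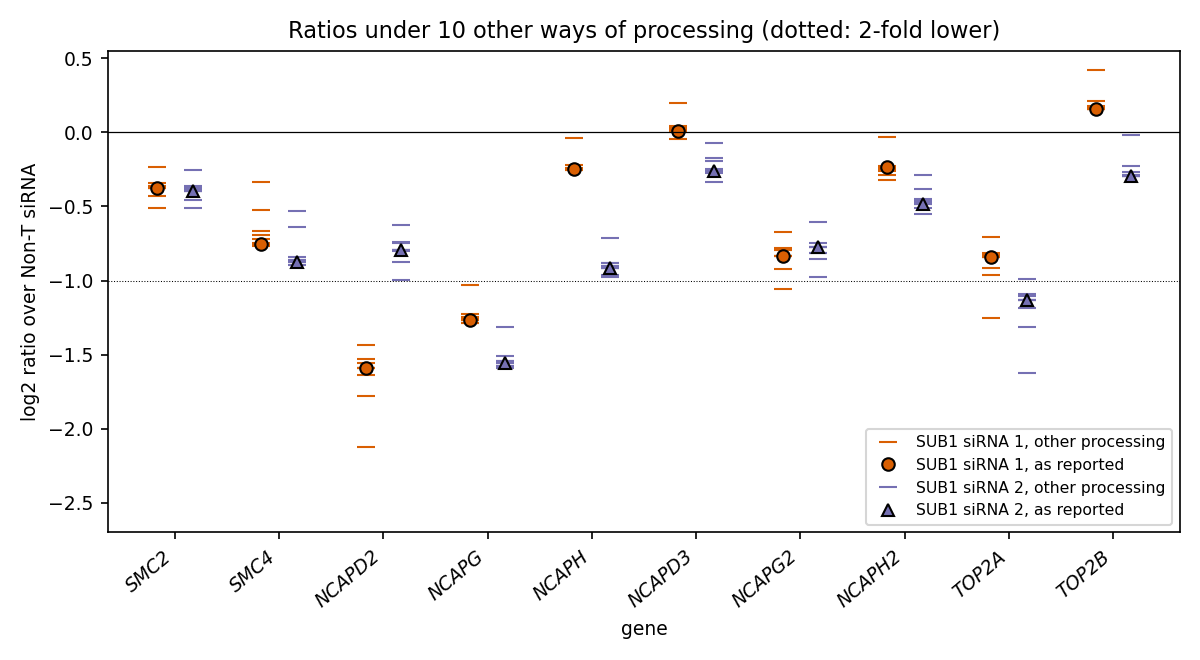
Log2 ratio of each member with siRNA 1 (circles) and siRNA 2 (triangles) as reported, and under 10 other ways of processing the spots (horizontal marks). The dotted line marks a 2-fold lower level. NCAPG lies below it under every setting drawn. The ratios of TOP2B lie between -0.29 and 0.42, and those of NCAPD3 between -0.33 and 0.20.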

How the data were processed

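Gene expression was measured on 2 dual-colour Agilent whole human genome arrays, 1 per SUB1 siRNA. The authors deposited the spot intensity and local background of both channels and 0 or 1 quality flags from Agilent Feature Extraction 9.5.1.1, per the file headers, with probe coordinates on hg18. They also deposited a table of log2 ratios, which the methods state were normalized by loess on each array with agilp. Comparison with the scanner signals gave its direction, Cy5 over Cy3 (Pearson correlation across probes 0.958 and 0.970), its slope against them was 1.01 and 1.02, and its medians were -0.0055 and -0.0069. It served as an alternative.

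Mean spot signals were corrected by normexp (offset 50) with the median local background, control spots were dropped, and ratios of Cy5 over Cy3 were loess-normalized with a span of 0.3 (limma 3.58.1, R 4.3.3). Channel levels were then scaled between arrays by Aquantile. Outlier spots were left out (112 and 100 per array, none of a member) and spots of a probe averaged. The filter kept probes for which a share of 0.5 or more of spots was well above background in 1 or both channels of each array, and the brightest kept probe stood for a gene. Genes were named through RefSeq (13129 of 19218 kept genes) or by the array's own name. A gene was called changed at an absolute log2 ratio of 1, as in the methods, on each array. The mean of both siRNAs was tested in limma by an intercept-only lmFit and eBayes with Benjamini-Hochberg adjustment over all genes, after a test on simulated data. Precision is limited by having 2 arrays. Members were named in full, with SUB1 and from each list the 3 genes whose mean ratio was farthest from 0. The members and lists were chosen with earlier results of these data known, so no list count is independent support. Of the genes this rule and the marker lists name, 2 are not reported here.

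The median raw spot intensity was 128 (Cy3) and 116 (Cy5) on the first array and 114 and 105 on the second. Alternatives changed the background correction, normalization, filter, probe choice and variance prior. The probes' place within exons was not examined.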

Additional observations from a re-analysis of the deposited data

Results flagged for a closer look

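The ratios of 2 members had opposite signs with the siRNAs, each on 1 array, and the difference between the siRNAs was not tested. NCAPD3, a HEAT repeat subunit of condensin II, had 0.0074 (siRNA 1) and -0.26 (siRNA 2) on the log2 scale, and 29.7% of all genes had ratios at least as far apart. TOP2B, the beta isoform of topoisomerase II, had 0.16 and -0.29, and 11.9% of all genes had ratios at least as far apart.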

How the results depend on the processing

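Of 444 values recomputed under the alternatives, 415 kept their sign and their side of the 2-fold line or threshold, or stayed within 1.5 times (counts) or the median SD among spots (member medians). This number includes settings on the filter, outlier spots and probe averaging that could not change members with 1 probe and 1 unflagged spot. Median centring in place of loess turned the mean ratio of NCAPD3 to 0.061 and that of TOP2B to 0.20, took TOP2A with siRNA 2 to -0.99, and left 1 member at least 2-fold lower with siRNA 2, with member medians of -0.38 and -0.62. The median of all genes was then 0.13 and 0.12. Against that median TOP2A with siRNA 2 was -1.11, NCAPD3 was 0.068 and -0.19, and TOP2B was 0.29 and -0.14. Median centring also gave 56 and 101 genes at least 2-fold lower and 137 and 266 higher (siRNA 1 and 2). Of the changed genes 71.0% and 72.5% were then higher, against 25.5% and 36.5%. The scanner software's processed signals turned NCAPD3 with siRNA 1 to -0.048, took NCAPG2 and TOP2A with siRNA 1 to -1.06 and -1.25, gave 4 members at least 2-fold lower with siRNA 1 and a member median of -0.92 with siRNA 2, and gave 298 and 474 genes lower and 778 and 994 higher (72.3% and 67.7% of the changed genes). A normexp offset of 16 gave 84 and 189 genes higher (37.0% of the changed genes with siRNA 1) and a member median of -0.87 with siRNA 2. Averaging the probes of a gene gave member medians of -0.36 and -0.65, as SMC4 then included its dim probe. The count of genes with an adjusted p under 0.05 in limma was 0 in 5 settings, where the genes at an unadjusted p under 0.05 numbered 4077 (no background correction), 4023 (median spot signals), 5707 (median centring), 3902 (processed signals) and 4141 (the authors' ratios, with which 36.7% and 47.4% of the changed genes were higher). The members' lowest adjusted p was between 0.0577 and 0.175 over the alternatives. Apart from the averaged probes, the cause of these shifts was not tested. No paired analysis was possible because the ratios are already paired within each array, so that no further block can be fitted, and with 1 array per siRNA leaving out an array means giving each siRNA alone. Spots near the background limit the second SMC4 probe, and the second NCAPH2 probe was dim.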

Other observations

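Of 10 reference genes used to scale expression, all were measured, and the list medians of the log2 ratio were -0.025 with siRNA 1 and -0.099 with siRNA 2. ACTB, which encodes beta-actin, had 0.75 and 0.37, and B2M, the light chain of MHC class I, had 0.13 and 0.78. In limma no reference gene passed an adjusted p of 0.05, and at an unadjusted p under 0.05, 2 of 10 were lower and 1 higher, beside 9.91% and 11% of all genes.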
